A study of Mus musculus with 18 samples.

Results

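Homeostatic microglia genes are the set by which surveying, unactivated microglia are told apart from other brain cells and from other macrophages. The 10 genes described here, *P2ry12*, *P2ry13*, *Gpr34*, *Cx3cr1*, *Csf1r*, *Sall1*, *Tmem119*, *Siglech*, *Selplg* and *Olfml3*, were taken by symbol from the transcript count table of the panRNA-seq experiment. They held 37 of its 116873 transcripts and were 10 of its 35823 symbols after counts were summed per symbol. The 18 libraries came from brains of mice aged 10 months and formed 6 groups of 3 biological replicates, namely WT and *Atxn2*-CAG100-KIN microglia, WT and KIN astrocytes, and WT and KIN neurons. KIN mice, a model of spinocerebellar ataxia type 2, were homozygous for a long CAG expansion knocked into *Atxn2*, on a C57BL/6 background and with WT littermates as controls. Both sexes were among the sequenced animals of each genotype, and the sex of single libraries was not used here. No animal received a treatment. The fractions were collected one after the other from single dissociated brains with magnetic beads, first CD11b-positive cells as microglia, then ACSA-2-positive cells as astrocytes, and the cells left after depletion as neurons. CD11b is carried by other myeloid cells as well as by microglia. The *p* values below measure the spread between these libraries. In bulk fractions, fewer cells of a type and less RNA per cell cannot be told apart.

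Microglia in the healthy brain patrol with motile processes, and the genes of this set serve that state. *P2ry12* and *P2ry13* encode receptors for extracellular ADP, *Gpr34* a receptor for lysophosphatidylserine, and *Cx3cr1* the receptor for the neuronal chemokine fractalkine. *Csf1r* encodes the receptor tyrosine kinase on which microglial survival depends, with CSF1 and IL-34 as ligands. *Sall1* encodes a zinc-finger transcription factor of microglial identity. *Tmem119* encodes a transmembrane protein used as a microglial marker, *Siglech* a sialic acid-binding lectin that signals through the adaptor TYROBP, *Selplg* the P-selectin ligand PSGL-1, and *Olfml3* a secreted olfactomedin-like glycoprotein. In disease-associated microglia (DAM), many genes of this set are known to decline while a phagocytic and lipid-handling programme is induced.

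The libraries held 2118317 to 3296398 counts in the glial fractions and 761481 to 2017932 in the neuronal fraction. The 10 most abundant genes took up to 85.7% of these counts, which left 25 to 83 counts of *P2ry12* or *P2ry13* in a microglial library. A limit of 3 counts, the level that a count of 0 allows, equalled 0.863 to 1.53 CPM (counts relative to the scaled library size) in glial and 1.92 to 3.99 CPM in neuronal libraries, with counting error only. The microglial fraction held much myeloid RNA. The summed level of 14 pan-myeloid genes was 814 to 1511 CPM in microglia against 6.33 to 14.5 CPM in astrocytes and 16.0 to 51.8 CPM in neurons. These genes mark myeloid cells at large, and *Itgam*, the gene of the CD11b used for selection, is among them. For the neuronal label the data were weaker, as 10 neuron markers summed to 94.4 to 156 CPM in neurons, a range that overlapped the 36.4 to 135 CPM of WT astrocytes. The targeted gene *Atxn2*, whose repeat is expanded and not deleted, had a log2FC of -0.56 (SE 0.29) in KIN against WT microglia with an adjusted *p* of 0.471 in edgeR.

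All 10 genes were much more abundant in microglia than in astrocytes or neurons, in WT and in KIN mice. A gene was called where its adjusted *p* was 0.05 or less and its log2 fold change (log2FC) was 1 or more in size. In WT mice each of the 10 was called higher in microglia than in astrocytes by the quasi-likelihood test of edgeR, where 13.3% of all tested genes were called higher, and each was called higher than in neurons, where 12.4% were. In KIN mice each of the 10 was again called in both comparisons, against 18.5% of the tested genes for astrocytes and 16.6% for neurons. The counts are descriptions, since in WT mice 5 of the 10 met the read minimum against astrocytes, and 8 against neurons, through microglial libraries alone (5 and 7 in KIN mice) and had to differ. The plot of all 18 libraries shows for each gene that the lowest microglial library lay above the highest library of the other fractions.

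**Figure D1:**
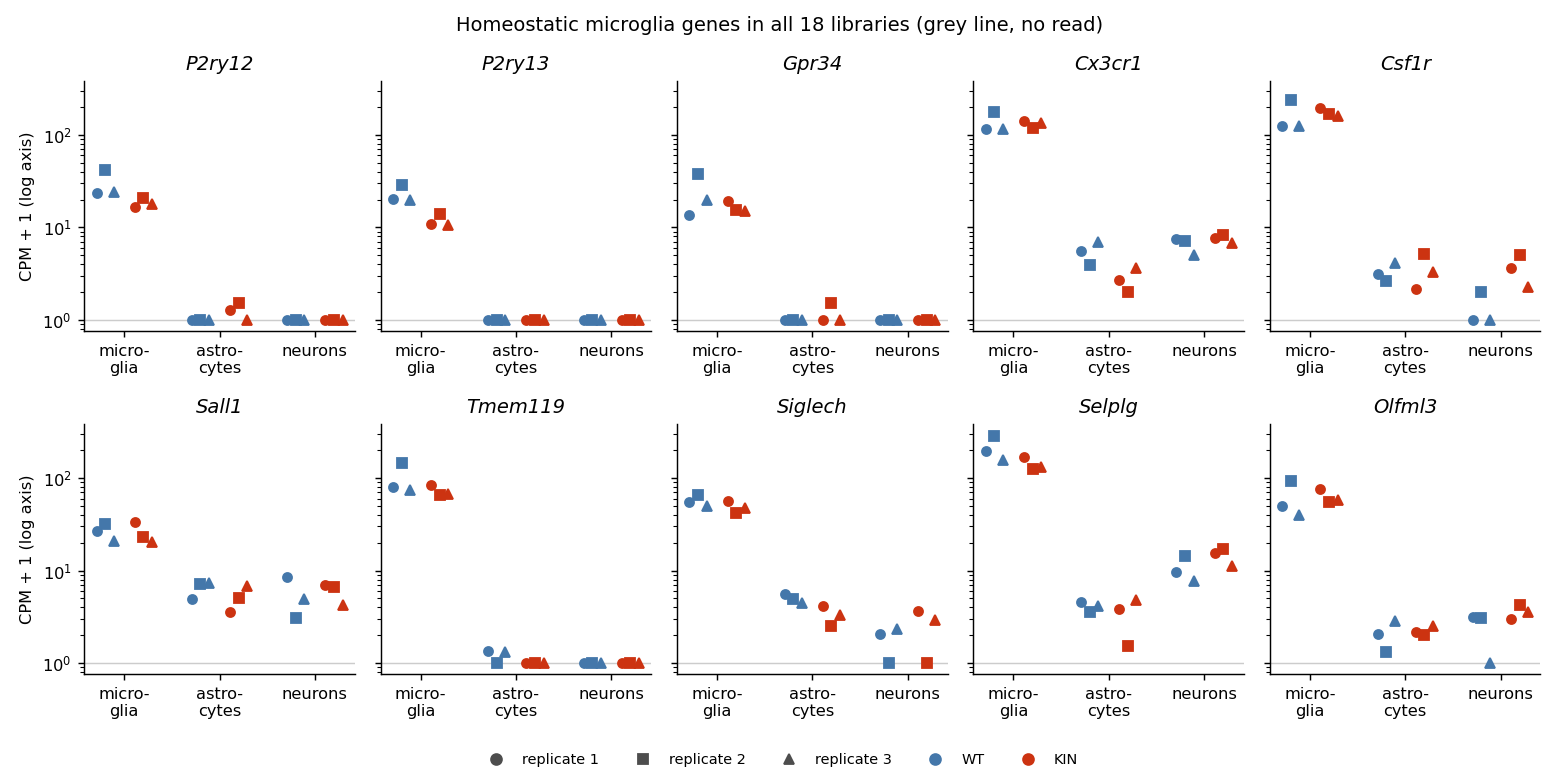
Level of each of the 10 genes in every library, as CPM plus 1 on a log axis, by fraction, with WT in blue, KIN in red and the replicate number as the symbol. The microglial libraries lay highest for every gene, *P2ry13* had no read in any astrocyte or neuron library, and *Sall1* came closest to the microglial level elsewhere.

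The purinergic receptors and *Gpr34* were at or near the floor outside microglia. *P2ry13* had 165 reads in the 3 WT and 89 reads in the 3 KIN microglial libraries and no read in any of the 12 other libraries, so that its level in WT microglia was at least 64.7-fold higher than in astrocytes and at least 18.8-fold higher than in neurons, taking 3 counts over the group as the floor. *P2ry12* had 214 reads in WT microglia, none in WT astrocytes or in any neuron library, and 1, 1 and 0 reads in KIN astrocytes. Its level in WT microglia was at least 83.9-fold higher than in astrocytes and at least 24.4-fold higher than in neurons. *Gpr34* had 160 reads in WT microglia and 1 read outside microglia, in KIN astrocyte replicate 2. *Tmem119* behaved the same way, with 735 reads in WT microglia, 1, 0 and 1 reads in WT astrocytes, and none in KIN astrocytes or neurons.

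The other 6 genes left reads outside microglia. *Sall1* stood out in this respect, with a level in WT microglia 4.63-fold that of astrocytes (95% counting interval 3.38 to 6.45) and 5.62-fold that of neurons (3.15 to 11.1). Its counts were 11, 19 and 20 in WT and 9, 8 and 15 in KIN astrocytes, and 7, 2 and 3 in WT and 9, 7 and 5 in KIN neurons, and as CPM the astrocyte and neuron libraries overlapped. *Siglech* in WT microglia was 14.0-fold higher than in astrocytes (9.96 to 20.3), with 13, 12 and 11 reads in WT astrocytes. For *Cx3cr1* the ratio was 28.9 against astrocytes (21.2 to 40.5) and 23.0 against neurons (13.9 to 41.3) in WT, and 69.9 against astrocytes (42.2 to 125) in KIN. *Csf1r* was 66.7-fold higher than in astrocytes (43.4 to 108) and had a single read in the 3 WT neuron libraries. In KIN mice *Csf1r* had 4, 5 and 2 reads in neurons, with a ratio of 67.4 (37.6 to 135). *Olfml3* was 52.3-fold higher than in astrocytes (28.2 to 109.9) and 38.1-fold higher than in neurons (14.8 to 140). *Selplg* had a ratio of 67.8 against astrocytes (46.7 to 102) and of 21.2 against neurons (14.4 to 32.6) in WT, the latter being 10.5 in KIN (8.04 to 13.9). The 84 *Selplg* reads of neurons came with a pan-myeloid signal that was also higher in neurons than in astrocytes, and its part in them was not tested.

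For some genes the reads outside microglia were divided among the transcript models in other shares than in microglia. Of the 49 *Selplg* reads in astrocytes, 47 fell on a single-exon retained-intron transcript (95.9%, exact 95% interval 86.0 to 99.5%), which took 8.02% of the 2769 reads in microglia (7.03 to 9.09%) and 27.4% of the 84 reads in neurons (18.2 to 38.2%). Spliced coding *Selplg* transcripts thus had 2 reads in the 6 astrocyte libraries. For *Siglech*, 2 of 8 transcripts, a protein-coding and a nonsense-mediated decay model, took 29 and 25 of its 56 astrocyte reads (51.8 and 44.6%). The same 2 took 31.1 and 33.3% of its 816 reads in microglia. The coding transcript with 103 of 816 reads in microglia had none in astrocytes (an upper 95% limit of 6.38%). For *Csf1r*, a coding transcript with 46.0% of the reads in microglia had 2 of the 39 astrocyte reads (5.13%, 0.627 to 17.3%). For *Cx3cr1*, in contrast, the 2 main transcripts had 43.1 and 47.0% in microglia, 46.4 and 48.2% in astrocytes, and 53.5 and 44.2% in neurons. Reads that isoforms have in common can be split among them by the counting, so these are shares of counted reads, pooled over the 6 libraries of a fraction, with intervals that cover counting error only and not the spread between libraries.

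In microglia, KIN against WT, none of the 10 genes was called by edgeR, where 1.52% of the 10831 genes tested were called. The genes were not uniform. The ADP receptors *P2ry13* and *P2ry12* were lower in every KIN than in every WT library, *Selplg* was lower with partial overlap, and *Cx3cr1*, *Csf1r*, *Sall1* and *Olfml3* had log2FC between -0.048 and 0.099. *P2ry13* alone had an adjusted *p* of at most 0.05, where 0.794% of all genes reached it in the lower direction. 3 of the 10 genes were lower at an unadjusted *p* under 0.05, against 5.76% of all genes, and 2 of 10 were lower without overlap of the libraries, against 7.59%. 8 of the 10 log2FC were negative, with a median of -0.35, beside -0.0037 over all genes tested. Without WT replicate 2, a library that stood apart, 5 of the 10 were negative and the median was -0.045. DESeq2 called 1 of the 10, *P2ry13*, and had 3 at an unadjusted *p* under 0.05.

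**Figure D2:**
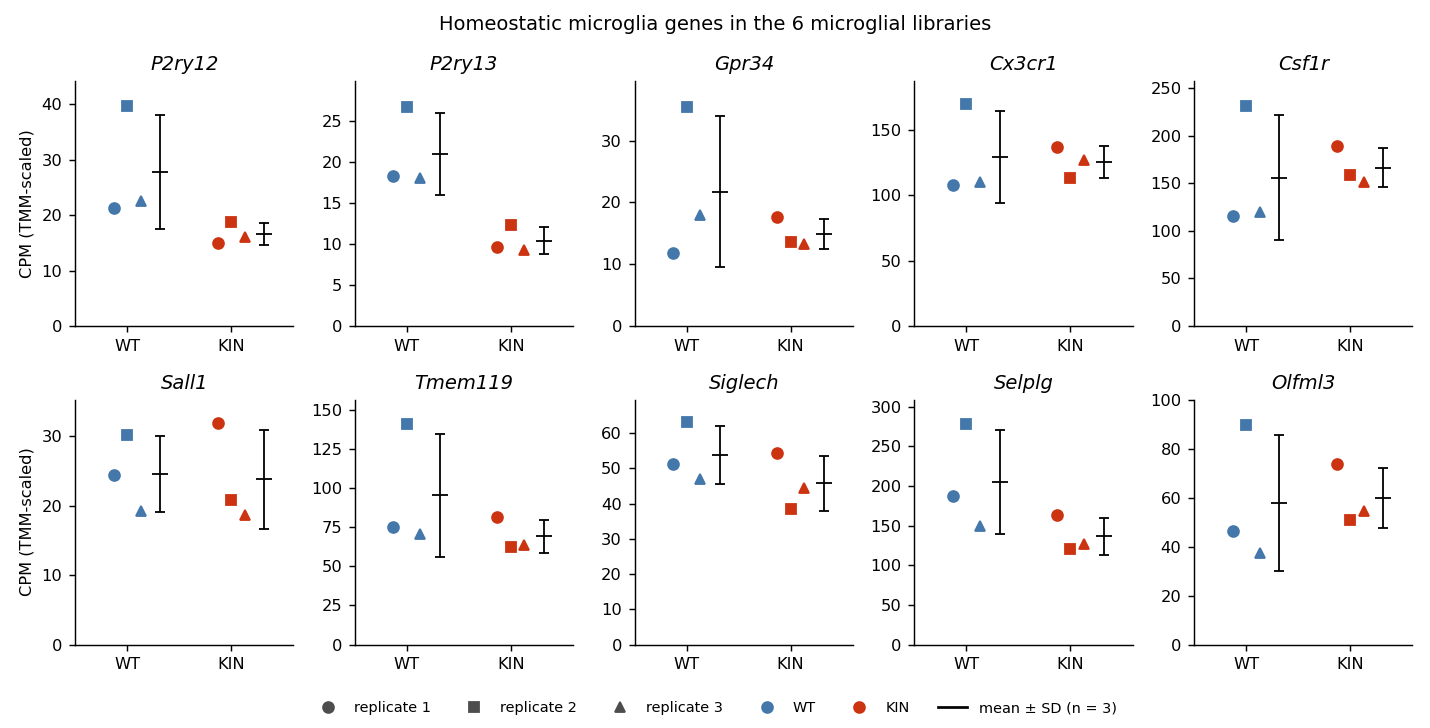
Level of each gene in the 6 microglial libraries, as CPM scaled by TMM, with WT in blue, KIN in red, the replicate number as the symbol, and the mean with its SD (n = 3) in black. WT replicate 2 was the highest WT library for all 10 genes, and only *P2ry12* and *P2ry13* separated the genotypes fully.

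WT replicate 2 stood apart and bears on every value of KIN against WT microglia. The summed level of the 10 genes was 697, 1144 and 635 CPM in WT replicates 1 to 3 and 797, 640 and 652 CPM in the KIN replicates. In counts WT replicate 2 was not the highest, with 2311 reads of the 10 genes beside 2348 and 1498 in WT replicates 1 and 3. Its 10 most abundant genes took 85.3% of its counts, beside 78.8 and 81.5% in those replicates. The part of library scaling in its high CPM was not tested. The same library also had the lowest level of neuron markers among WT microglia, 19.8 CPM against 72.1 and 67.0 CPM, with 9.51 to 12.9 CPM in KIN. Without this library, 452 in place of 165 genes were called in all, and the log2FC of each of the 10 genes moved upward.

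*P2ry13*, the gene for an ADP receptor, had the lowest log2FC of the set. Its level was 18.3, 26.8 and 18.0 CPM in WT microglia and 9.62, 12.3 and 9.34 CPM in KIN microglia. All KIN libraries lay below all WT libraries. The log2FC was -0.99 (SE 0.26, 95% interval -1.52 to -0.46) with an adjusted *p* of 0.0462 in edgeR, just under the fold threshold of 1. Under 7 other settings, DESeq2 among them, the log2FC came to lie past that threshold and the gene was called, with the lowest log2FC, -1.52, under the scaling described below for pan-myeloid genes. Leaving out 1 library at a time gave log2FC of -1.13 to -0.81 and adjusted *p* values of 0.0432 to 0.226, and the adjusted *p* stayed under 0.05 only without WT replicate 2. The 254 microglial reads fell on 1 protein-coding transcript whose exons overlap no other gene.

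*P2ry12*, its neighbour and the gene for the better-known ADP receptor, followed in size. Its level was 21.4, 39.7 and 22.5 CPM in WT microglia and 15.0, 18.8 and 16.0 CPM in KIN microglia. The groups did not overlap, but the highest KIN and the lowest WT library were close. The log2FC was -0.72 (SE 0.26, unadjusted *p* = 0.0103) with an adjusted *p* of 0.194 in edgeR, and it was -0.41 without WT replicate 2. Its 356 microglial reads were spread over 5 protein-coding transcripts with log2FC of -0.31 to -1.24 and adjusted *p* values of 0.124 to 0.959 in edgeR. 3 of these transcripts have exons that overlap *Med12l*, a gene on the opposite strand, and counting was done without regard to strand.

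The ADP receptor genes lie in tandem on chromosome 3, *P2ry13* at positions 59114539 to 59118304 and *P2ry12* at 59123682 to 59170429 on the minus strand of GRCm39, 5377 bases apart and both inside the span of *Med12l* on the plus strand. Since these neighbours were the members whose genotypes separated, their promoter windows are given from RefSeq (build GRCm38.p6, 250 bases before to 50 bases after the start, minus strand, 5′ to 3′), with the PU box GAGGAA, the core that the myeloid factor PU.1 binds, in capitals where either strand holds it. The P2ry13 window is chr3:59210833-59211132 and the P2ry12 window chr3:59262936-59263235.
P2ry13: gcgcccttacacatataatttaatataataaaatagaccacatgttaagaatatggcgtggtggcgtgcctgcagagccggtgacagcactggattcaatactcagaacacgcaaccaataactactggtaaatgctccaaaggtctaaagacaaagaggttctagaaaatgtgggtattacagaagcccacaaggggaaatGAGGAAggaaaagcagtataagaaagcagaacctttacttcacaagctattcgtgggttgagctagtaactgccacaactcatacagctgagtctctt
P2ry12: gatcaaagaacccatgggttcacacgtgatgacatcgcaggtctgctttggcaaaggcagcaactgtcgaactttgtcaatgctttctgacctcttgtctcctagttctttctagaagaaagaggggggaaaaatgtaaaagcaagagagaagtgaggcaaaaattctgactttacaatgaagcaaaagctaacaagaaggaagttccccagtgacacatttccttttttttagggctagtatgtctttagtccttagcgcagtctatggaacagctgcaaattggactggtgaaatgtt
The P2ry13 window held GAGGAA at 1 place and the P2ry12 window at none. Among the 8 windows examined here, which belong to 6 of the 10 genes, 2 held GAGGAA or TTCCTC. Of all 32851 windows of that length 28.3% did. The remaining genes of the set were not examined for this motif, so the tally does not describe the whole set. A match describes the letters and not a bound site.

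*Gpr34*, the lysophosphatidylserine receptor gene, was the most dependent on a single library. Its level was 11.8, 35.4 and 18.0 CPM in WT and 17.7, 13.7 and 13.3 CPM in KIN microglia, and the KIN values lay between those of WT replicates 1 and 3. The log2FC of -0.50 (SE 0.31, adjusted *p* = 0.576 in edgeR) became 0.0069 without WT replicate 2.

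*Cx3cr1*, the fractalkine receptor gene, was at 108, 169.8 and 110.2 CPM in WT and at 137, 113 and 127 CPM in KIN microglia. The KIN values lay inside the WT range. Its log2FC was -0.039 with a 95% interval of -0.52 to 0.44, which spans a fold of 0.699 to 1.36.

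*Csf1r*, the gene for the growth factor receptor, was at 116, 231 and 120.4 CPM in WT and at 189.7, 159 and 151 CPM in KIN microglia. Every KIN library lay above WT replicates 1 and 3 and below WT replicate 2. The log2FC was 0.099 (95% interval -0.42 to 0.62, adjusted *p* = 0.953 in edgeR), and it was 0.48 with an adjusted *p* of 0.135 without WT replicate 2. Of its 6 transcripts, 2 have exons that overlap *Hmgxb3*.

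*Sall1*, the transcription factor gene, was at 24.4, 30.1 and 19.2 CPM in WT and at 31.9, 20.8 and 18.7 CPM in KIN microglia, with the highest and the lowest library both in KIN. Its log2FC was -0.048 (95% interval -0.57 to 0.48).

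*Tmem119*, the marker gene, was at 75.0, 141 and 70.9 CPM in WT and at 81.6, 62.5 and 63.7 CPM in KIN microglia. Its log2FC of -0.46 (SE 0.26, adjusted *p* = 0.517 in edgeR) was -0.097 without WT replicate 2. *Siglech*, the lectin gene, was at 51.1, 63.1 and 47.1 CPM in WT and at 54.2, 38.6 and 44.3 CPM in KIN microglia, with a log2FC of -0.23 (95% interval -0.71 to 0.24), or -0.13 without WT replicate 2. For both genes the genotypes overlapped.

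*Selplg*, the gene of the P-selectin ligand, was at 187, 278 and 149 CPM in WT and at 163, 120.1 and 127 CPM in KIN microglia. KIN replicate 1 lay above WT replicate 3, and all other KIN libraries lay below the WT range. The log2FC was -0.58 (SE 0.24, unadjusted *p* = 0.0248, adjusted *p* = 0.302 in edgeR), and it was -0.32 without WT replicate 2. Its 4 abundant spliced coding transcripts had log2FC of -0.57 to -0.81 with unadjusted *p* values of 0.00599 to 0.0352 and adjusted *p* values of at least 0.177 in edgeR. The retained-intron transcript that dominated in astrocytes had a log2FC of -0.12 (SE 0.30). The difference between these transcripts was not tested, and exons of these 4 coding transcripts overlap *Gm71766*. *Selplg* lies 18019 bases from *Tmem119* on chromosome 5.

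*Olfml3*, which encodes the secreted protein of the set, was at 46.4, 89.9 and 37.7 CPM in WT and at 73.9, 51.2 and 54.7 CPM in KIN microglia. All KIN values fell between WT replicates 1 and 2. Its log2FC was 0.056 (95% interval -0.50 to 0.62), and a retained-intron transcript took 47.6% of its 951 microglial reads.

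**Figure D3:**
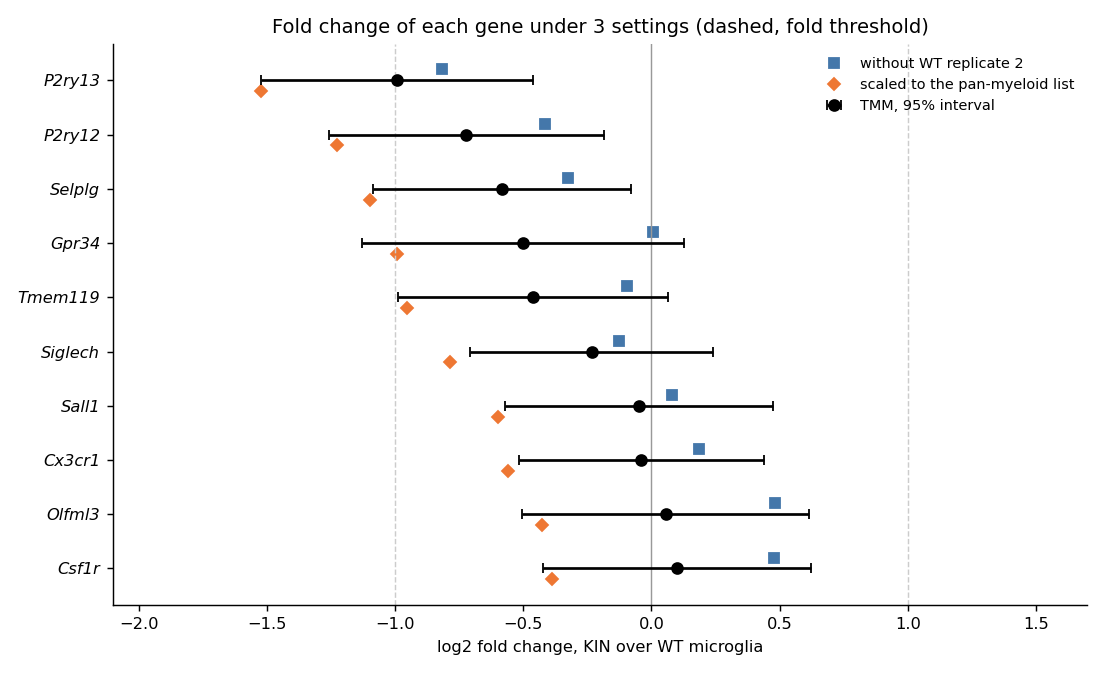
Log2 fold change of each gene in KIN over WT microglia, with the TMM-scaled estimate and its 95% interval in black, the estimate without WT replicate 2 as blue squares and the estimate scaled to the pan-myeloid list as orange diamonds. *P2ry13* lay lowest under all 3 settings, and *Csf1r* and *Olfml3* moved from 0.48 to -0.39 and -0.43 between the outer settings.

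The level of the set relative to other myeloid RNA separated the genotypes where its level relative to the whole library did not. Summed over the 10 genes, there were 780 to 860 counts per 1000 pan-myeloid counts in WT microglia and 471 to 528 in KIN microglia. The spread between libraries (SD over the mean) was 4.91% on this scale and 33.6% as CPM in WT, where replicate 2 stood apart, and 6.59% and 12.6% in KIN. *P2ry13* stood at 22.2 ± 1.20 per 1000 pan-myeloid counts in WT and at 7.70 ± 1.57 in KIN (SD, n = 3), *P2ry12* at 28.8 ± 2.04 and 12.3 ± 2.15, *Selplg* at 214 ± 22.8 and 99.9 ± 9.88, and *Tmem119* at 98.0 ± 10.4 and 50.7 ± 4.29. *Cx3cr1* went from 136 ± 3.97 to 92.1 ± 4.32, and *Csf1r* from 159.6 ± 18.1 to 122 ± 7.52. On this scale 9 of the 10 genes, all but *Olfml3*, were lower in every KIN than in every WT library, where 23.1% of all genes were.

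The pan-myeloid genes were not constant themselves, and the scale was chosen after the data had been seen. Their sum was 841, 1329.9 and 814 CPM in WT and 1511, 1357 and 1382 CPM in KIN microglia, without overlap. None of the 14 was called in KIN microglia by edgeR or by DESeq2 (no adjusted *p* for 1), but all 14 had a positive log2FC, with a median of 0.49 and a range of 0.0049 to 1.00, and 6 had an unadjusted *p* under 0.05 in edgeR. *C1qa*, a subunit of complement C1q and the most abundant of them, was at 246 to 316 CPM in WT and 409 to 434 CPM in KIN microglia (log2FC 0.62, adjusted *p* = 0.191 in edgeR), and *C1qb*, another subunit, had a log2FC of 0.64 (adjusted *p* = 0.276). With libraries scaled to the summed pan-myeloid counts, the median log2FC of all genes was -0.56 and that of the 10 genes -0.87. *P2ry13*, *P2ry12* and *Selplg* were then called, with log2FC of -1.52, -1.23 and -1.10, and 371 genes were called in all, 357 of them lower.

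**Figure D4:**
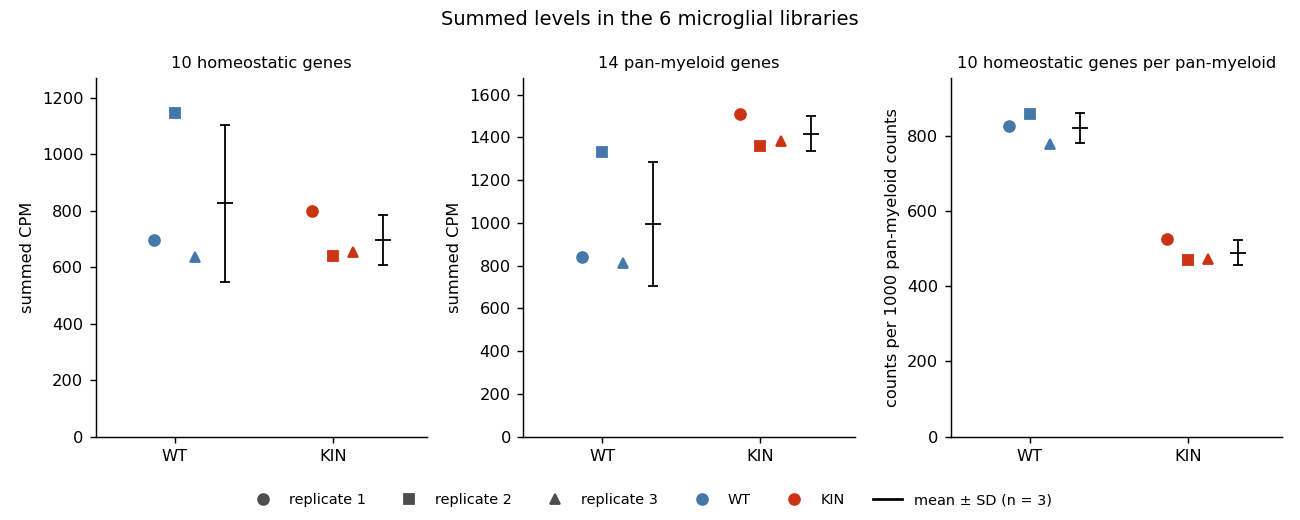
Summed CPM of the 10 homeostatic genes, summed CPM of the 14 pan-myeloid genes, and counts of the former per 1000 counts of the latter in the 6 microglial libraries, with the mean and SD (n = 3) in black. The CPM sums of the homeostatic genes overlapped between genotypes, and the ratio was 780 to 860 in WT against 471 to 528 in KIN.

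Some genes took other shares of the set in KIN than in WT microglia. Of all counts of the 10 genes, *Csf1r* took 19.4 ± 1.69% in WT and 24.9 ± 0.972% in KIN microglia. *Cx3cr1* took 16.6 ± 1.31% and 18.8 ± 1.31%, with overlap of the libraries (15.4 to 18.0% in WT and 17.7 to 20.3% in KIN). *Selplg* took 26.0 ± 2.14% and 20.4 ± 0.691%, *P2ry12* 3.50 ± 0.231% and 2.53 ± 0.571%, and *P2ry13* 2.71 ± 0.262% and 1.58 ± 0.394% (SD, n = 3 each). Such shares are free of library scaling but must sum to the whole, so that the share of one gene depends on the others, and they were not tested.

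Ligands and partners of these receptors did not pass the test in microglia, with *Csf1* as the exception. Of 12 genes on this list 10 were tested in microglia, and 1 was called higher and none lower. *Csf1*, which encodes a ligand of the CSF1 receptor and is also a DAM gene, had 40, 16 and 21 reads in WT and 104, 94 and 125 reads in KIN microglia, without overlap, and rose by a log2FC of 2.02 (SE 0.25, adjusted *p* = 3.6e-05 in edgeR). Its receptor gene *Csf1r* had a log2FC of 0.099 in the same libraries. In astrocytes *Csf1* had a log2FC of 0.020 (SE 0.32). *Il34*, the gene of the other ligand, had 5, 0 and 2 reads in WT and 1, 0 and 0 reads in KIN microglia, and in astrocytes 6, 7 and 4 reads in WT and 1, 1 and 3 reads in KIN (log2FC -1.53, SE 0.78, adjusted *p* = 0.212). *Cx3cl1*, the fractalkine gene, had 14, 2 and 15 reads in WT and 1, 3 and 2 reads in KIN microglia (log2FC -2.36, adjusted *p* = 0.0576 in edgeR), and it was called lower in KIN astrocytes, with 21, 13 and 22 reads against 8, 10 and 5, which overlapped as CPM (log2FC -1.09, adjusted *p* = 0.0488 in edgeR), a call that DESeq2 did not make (adjusted *p* = 0.228). *Cx3cl1* is a neuronal gene, and neuron markers summed to 36.4 to 135 CPM in WT astrocytes and 29.1 to 39.8 CPM in KIN astrocytes. Their part in the *Cx3cl1* difference was not tested. *Tyrobp*, the adaptor gene for *Siglech*, had a log2FC of 0.96 (SE 0.36, adjusted *p* = 0.223), and *Entpd1*, which encodes the ectonucleotidase CD39, and *Gnai2*, which encodes the inhibitory G protein of the receptors, stood at log2FC of -0.13 and 0.081.

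None of the regulators of microglial identity was called. Of 20 genes of TGFβ signalling and the myeloid lineage, 18 were tested in microglia and none was called by edgeR or by DESeq2 (no adjusted *p* for 5), with 1 higher and 1 lower at an unadjusted *p* under 0.05 in edgeR and a median log2FC of 0.059. The TGFβ receptor genes *Tgfbr1* and *Tgfbr2* had log2FC of 0.03 and 0.21, *Spi1*, which encodes PU.1, 0.04, and *Irf8*, a lineage factor gene, 0.26. *Tgfb1* itself could not be read from the sum per symbol. A retained-intron transcript took 99.7% of its reads in microglia, 99.9973% in astrocytes and 99.9704% in neurons, with 13057 to 28411 counts in microglial libraries, whereas its main coding transcript had 46 to 70 counts in microglial libraries and 0 to 2 in all others. From protein-coding transcripts only, its log2FC in microglia was 0.054 (SE 0.26).

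Of 30 further genes known for the homeostatic state, all were tested in microglia and none was called by edgeR or by DESeq2 (no adjusted *p* for 9), with 4 lower and 1 higher at an unadjusted *p* under 0.05 in edgeR and a median log2FC of -0.14. *Cst3*, the cystatin C gene and the most abundant of them, had a log2FC of 0.025 (SE 0.31), and *Sparc*, which encodes a matricellular protein, -0.45 (adjusted *p* = 0.429 in edgeR).

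The DAM genes were higher in the same KIN libraries. Of 19 tested, 16 were called higher and none lower by edgeR, with a median log2FC of 2.02, where 80 of all 10831 genes were called higher. The list was chosen with earlier results of these data known, so its count of calls is a description. DESeq2 called 10 higher and gave no adjusted *p* for 5, with all 19 at an unadjusted *p* under 0.05 in both tools. *Cst7*, which encodes cystatin F, rose by 4.07 on the log2 scale, *Gpnmb*, a transmembrane glycoprotein gene, by 4.00, and *Spp1*, the osteopontin gene, by 3.95, with adjusted *p* values of 4.92e-05, 5.21e-07 and 3.58e-05 in edgeR. In the plot of gene lists, all DAM genes lay above all 10 homeostatic genes.

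**Figure D5:**
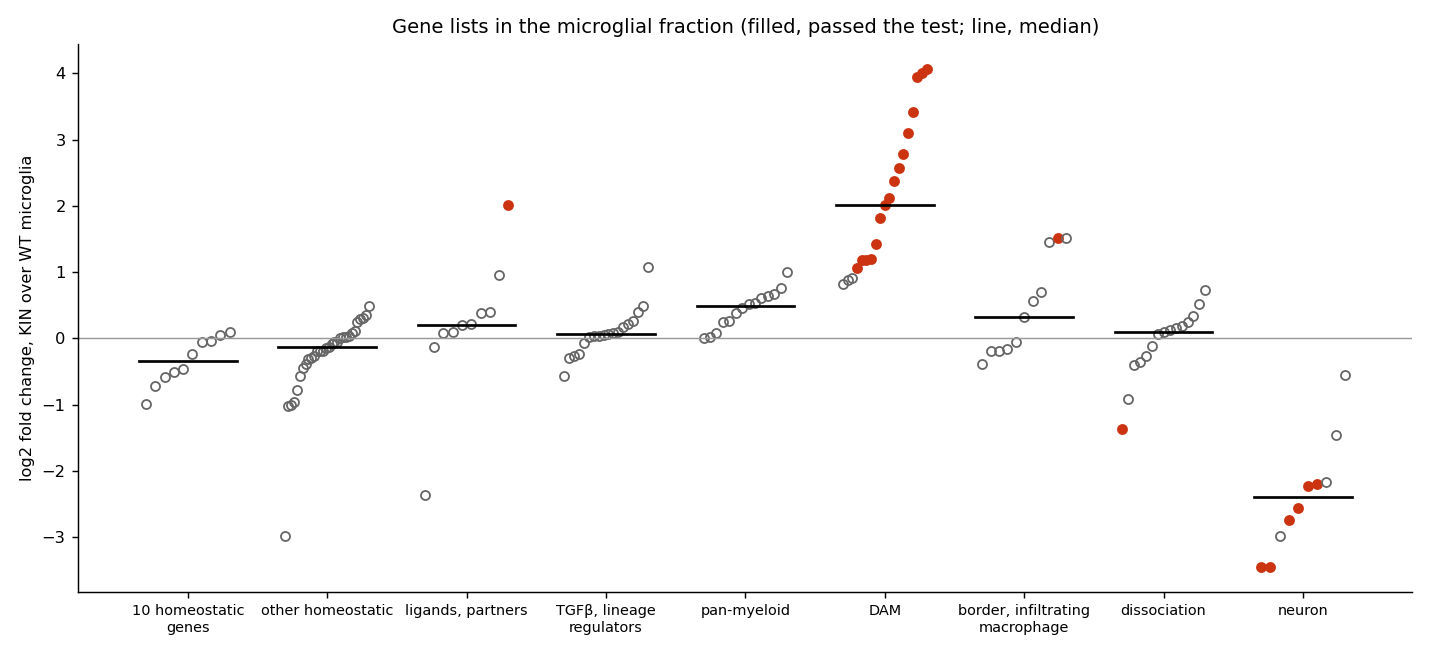
Log2 fold change of each tested gene in KIN over WT microglia, by gene list, with called genes filled, other genes open and the list median as a line. None of the 10 homeostatic genes was called, 16 of 19 DAM genes were called higher, and 6 of 10 neuron markers were called lower.

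Markers of other cells also moved in the microglial fraction. Of 10 neuron markers 6 were called lower in KIN by edgeR, led by *Nefl*, a neurofilament gene (log2FC -3.45), *Nrgn*, the neurogranin gene (-3.45), and *Syt1*, the synaptotagmin gene (-2.74), and their summed level was 19.8 to 72.1 CPM in WT and 9.51 to 12.9 CPM in KIN. Of 9 astrocyte markers 4 were tested and 2 were lower, the aldolase gene *Aldoc* (-3.22) and the glutamate transporter gene *Slc1a2* (-2.66), with summed levels of 23.3 to 35.2 CPM in WT and 15.9 to 18.3 CPM in KIN. *Cldn5*, an endothelial claudin gene, was the 1 of 5 tested vascular markers called, at -2.12. Of these 5, 4 had a negative log2FC, with a median of -0.64, while the summed level of the list was 42.8 to 59.9 CPM in WT and 49.4 to 55.5 CPM in KIN. None of the oligodendrocyte markers was called in edgeR, with 2 of 5 lower at an unadjusted *p* under 0.05, and *Mbp*, a myelin gene, at -1.10. Of 14 genes of border-associated and infiltrating macrophages 11 were tested and 1, the lysozyme gene *Lyz2*, was called higher (1.51), with a summed level of 91.4 to 122 CPM in WT and 92.9 to 178 CPM in KIN. Of 15 genes of the dissociation response 1, the heat shock gene *Hspa1a*, was called, and it was lower (-1.36), with summed levels of 1279 to 1424 CPM in WT and 1258 to 1450 CPM in KIN. DESeq2 gave no adjusted *p* for any of the neuron, astrocyte and oligodendrocyte markers tested, nor for *Cldn5*, so these calls rest on edgeR, with 9 neuron and 2 astrocyte markers at an unadjusted *p* under 0.05 in DESeq2. No gene of these lists was at 0 in all microglial libraries. The part of these changes in the values of the 10 genes was not tested.

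In astrocytes, 5 of the 10 genes had enough reads to be tested, and none was called in KIN against WT by edgeR, which called 8.85% of 11751 genes. DESeq2 gave no adjusted *p* for 4 of the 5, all but *Sall1*, and could not call them. 1 of the 5, *Cx3cr1*, had an unadjusted *p* under 0.05 with either tool. It had 13, 9 and 19 reads in WT and 6, 2 and 7 reads in KIN astrocytes, without overlap, and a log2FC of -1.27 (SE 0.44, adjusted *p* = 0.0507 in edgeR). *Siglech* was the other gene of the 5 that was lower in every KIN library, with a log2FC of -0.69 (adjusted *p* = 0.311), and such separation was seen for 14.4% of all genes. *Csf1r*, *Sall1* and *Selplg* had log2FC of -0.029, -0.46 and -0.27. The call for *Cx3cr1* depended on the setting, with log2FC of -1.61 to -1.01 and adjusted *p* values of 0.00933 to 0.287 when 1 library was left out at a time. It was called without WT replicate 2 (-1.51) and, among other settings, from protein-coding transcripts only (-1.62, adjusted *p* = 0.0139). The pan-myeloid genes, summed in the same libraries, had 41, 23 and 40 reads in WT and 22, 14 and 20 reads in KIN astrocytes, and 2 of the 3 tested were called lower by edgeR, while DESeq2 gave them no adjusted *p*. Their part in the *Cx3cr1* difference was not tested.

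In neurons, 3 of the 10 genes were tested, and none was called or had an unadjusted *p* under 0.05 in edgeR or DESeq2, where edgeR called 0.0148% of 6765 genes. *Cx3cr1* had a log2FC of 0.012 (95% interval -1.07 to 1.09), *Sall1* of -0.088 (-1.37 to 1.20) and *Selplg* of 0.28 (-0.54 to 1.09). The first 2 intervals hold a change past the fold threshold in either direction, and that of *Selplg* only an increase. The effects of the 3 fractions were not tested against each other.

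Genes with the most similar pattern were named by the Pearson correlation of their log2 CPM with the mean of the 10 standardised genes, among 2623 genes with a mean of at least 20 counts in microglia. Over all 18 libraries these were *P2ry6* (*r* = 0.993), *Fcrls* (0.992), *Aif1* (0.991), *Trem2* (0.991) and *Pld4* (0.990), and 235 genes had an *r* over 0.9, which describes the difference between fractions that all these genes have in common. Each of the 10 genes correlated with the mean of the other 9 at 0.930 to 0.996, with *Selplg* lowest and *Tmem119* highest. Over the 6 microglial libraries the closest genes were *Tmem231* (0.994), *Ptp4a3* (0.979), *Polr2a* (0.978), *Vsir* (0.976) and *Sympk* (0.957), and *Tmem119* was again the gene closest to the rest of the set (0.993) while *P2ry13* was the farthest (0.559). *P2ry13* and *P2ry12* correlated with each other at 0.944, and *Csf1r* with *Olfml3* at 0.951 and with *P2ry13* at 0.0923. These 6 libraries share the high value of WT replicate 2, and the correlations are descriptions over few points.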

How the data were processed

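Fractions of WT and *Atxn2*-CAG100-KIN mouse brain were sequenced by 3′-end panRNA-seq with molecular identifiers. Per the sources, the authors trimmed reads with cutadapt 4.6, mapped them with Bowtie2 2.4.4 to mm39 and counted them with HTSeq 2.0.2 without regard to strand. The deposited counts are whole numbers per transcript, not normalized. The table also holds the results of the authors' own DESeq2 comparisons and 36 further columns of normalized values per sample, and neither entered here.

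Counts were summed by symbol, and 137 entries without a symbol, at most 0.0305% of a library, stayed under their identifier. Groups came from the sample labels. The 7 comparisons, KIN against WT in each fraction and microglia against astrocytes and neurons in each genotype, were fitted separately in edgeR 4.0.16 (TMM scaling, at least 5 reads in at least 2 libraries, quasi-likelihood test, Benjamini-Hochberg adjustment over all genes of a fit). Calls needed an adjusted *p* of 0.05 or less together with a log2FC of 1 or more in size. CPM (counts relative to the TMM-scaled library size) of single genes in KIN against WT were scaled over the 6 libraries of a fraction, and summed levels and the plot of fractions over all 18. Fraction ratios and isoform shares are pooled counts with exact 95% intervals, which cover counting error only. Positions are from GENCODE M39 on GRCm39.

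All 10 genes are named in every comparison, ligands, partners and regulators by role, and from other lists at most 3 called genes in each direction or, with none called, the 2 most abundant. Values of 2 genes that this rule names are not reported here. Members and lists were chosen with earlier results of these data known. Tests were tried on simulated data. Alternatives were DESeq2 1.42.0, its size factors, TMM without the 10 most abundant genes, no filter, a filter at a mean of 10 counts, the adjusted *p* alone, all 18 libraries in one fit, the replicate number as a block, each library left out, and the most abundant transcript. Protein-coding transcripts only and scaling to the pan-myeloid list were chosen after seeing the data. Libraries of a group differed by more than counting noise, so each counted as 1 replicate.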

Additional observations from a re-analysis of the deposited data

How the results depend on the processing

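All 10 genes were called higher in microglia than in astrocytes and neurons under every alternative run for these comparisons, which left out the most abundant transcript and the pan-myeloid scaling. These calls are descriptions. In the fit as described, 5 of the 10 against astrocytes and 7 or 8 against neurons met the read minimum through microglial libraries alone. In the same fit, 12.4 to 18.5% of all tested genes were called higher in these comparisons. In KIN against WT microglia, 0 genes of the set were called in the fit as described, 1 (*P2ry13*) with the adjusted *p* alone, DESeq2, its size factors, TMM without the 10 most abundant genes, no filter, a filter at a mean of 10 counts or the replicate block, 3 with the pan-myeloid scaling, and 0 with any library left out. In astrocytes 0 became 1 (*Cx3cr1*) with the size factors, the block, protein-coding transcripts only or without WT replicate 2 (range 0 to 1).

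Genes called in all in microglia were 165 (80 higher and 85 lower), 48 with DESeq2 (41 and 7), 276 without a filter (105 and 171), 238 with all 18 libraries (90 and 148), 95 with the mean filter (61 and 34), 371 with the pan-myeloid scaling (14 and 357) and 35 to 452 with 1 library left out, 452 of them without WT replicate 2 and 35 to 48 without any other. In astrocytes they were 1040, 416 with DESeq2 and 572 to 1528 with 1 library left out, with 606 without WT replicate 1 and 572 without WT replicate 3. In neurons they were 1, 0 with DESeq2, the mean filter or the block, 7 with the size factors, 28 without a filter, 27 with all libraries, 8 from protein-coding transcripts and 0 to 22 with 1 library left out. For WT microglia they were 3283 against astrocytes and 2128 with the mean filter, and 1853 against neurons, 1121 with DESeq2 and 1225 with the mean filter. For KIN microglia the mean filter gave 2521 in place of 4580 and 1764 in place of 2996.

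Signs turned for genes near 0 and, without WT replicate 2, for *Gpr34*. With the pan-myeloid scaling *Csf1r* was at -0.39 and *Olfml3* at -0.43, with the most abundant transcript at -0.053 and -0.11, and *Olfml3* was at -0.036 from protein-coding transcripts. Leaving out 1 library gave ranges of -0.083 to 0.48 for *Csf1r*, -0.20 to 0.48 for *Olfml3*, -0.84 to 0.0069 for *Gpr34*, -0.17 to 0.19 for *Cx3cr1* and -0.31 to 0.098 for *Sall1*. The causes were not tested. The replicate numbers were not taken to pair libraries, since no source states what a shared number means and deviations of same-numbered libraries correlated at -0.27 to 0.17 between WT and KIN microglia and at 0.086 to 0.31 between WT microglia and astrocytes, not over 0.1 in every pair, and with the replicate block 154 genes were called in microglia, *P2ry13* among them. Outside microglia, 5 genes in astrocytes and 7 in neurons had too few reads to test.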
